A study of Rattus norvegicus with 8 samples.

Results

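The cartilage miRNAs miR-140 and miR-455 were examined through their 4 mature arms, rno-miR-140-5p, rno-miR-140-3p, rno-miR-455-5p and rno-miR-455-3p (the prefix stands for rat), taken by name from 415 rat mature names in a table of miRNA counts. All 4 were present, each as 1 row, so summing per mature name merged nothing, and 0 other rows lay on the same hairpins or carried the same sequence. Small RNA had been sequenced from exosomes, the small vesicles that cells release, of rat intervertebral disc cells. Nucleus pulposus progenitor cells (NPPC) gave the vesicles of 4 libraries. The other 4 held vesicles of nucleus pulposus cells (NPC), which fill the soft centre of the disc. The labels name no treatment, genotype, strain, sex, age or passage in either group. Whether replicates were separate cultures or separate rats is not said there. The p-values below therefore measure the spread between libraries and nothing beyond it, and that spread may be technical. The measured RNA is that of the vesicles and not of the cells, and the protein-coding markers that define the 2 kinds of cell were not analysed here.

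Mature miRNAs are cut as a pair from opposite arms of 1 hairpin, and the arm that is loaded into an Argonaute protein represses mRNAs that match its seed, the bases from position 2 to 8. miR-140 lies in an intron of Wwp2, a ubiquitin ligase gene, and is known for its strong enrichment in cartilage, where the transcription factor Sox9 drives it in mouse. In mouse cartilage it represses Adamts5, an aggrecan-degrading protease, and mice without it lose joint cartilage early. miR-455 lies in an intron of Col27a1, a fibrillar collagen gene of cartilage that Sox9 also drives in mouse, and both of its arms are known to repress Epas1, a hypoxia-responsive factor, in mouse chondrocytes. The disc core resembles cartilage in its aggrecan-rich and collagen-rich matrix.

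The sequences show what was counted and which seeds are involved. As deposited, written as RNA with the seed in capitals, the 4 arms read as follows, with the miRBase form of miR-140-3p given in the table after them.
rno-miR-140-5p: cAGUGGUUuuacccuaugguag
rno-miR-140-3p: aCCACAGGguagaaccacggac
rno-miR-455-5p: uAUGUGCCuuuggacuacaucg
rno-miR-455-3p: gCAGUCCAcgggcauauacacu
rno-miR-140-3p, miRBase form: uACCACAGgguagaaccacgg
The deposited miR-140-3p row began 1 base later and ended 2 bases later than the miRBase form, so its seed reads ccacagg in place of accacag. The other 3 rows equalled their miRBase form. A changed 5′ end was recorded for 43 rat rows, or 9.45% of them. A form of miR-140-3p with this shifted start is known from human cartilage. How reads of different end forms were merged into 1 row is not given in the sources used here, so the count of miR-140-3p may hold reads of both seeds. The 4 arms have 4 different seeds. In the RefSeq miRNA table for build GRCr8, in which 3 of the 4 names matched (miR-140-5p, miR-140-3p and miR-455-3p), 0 other rat miRNAs carried any of these seeds or the shifted one.

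The hairpins, from RefSeq with the miRBase arms in capitals, show where the arms sit.
Mir140, chr19:52375293-52375391, plus strand, GRCr8: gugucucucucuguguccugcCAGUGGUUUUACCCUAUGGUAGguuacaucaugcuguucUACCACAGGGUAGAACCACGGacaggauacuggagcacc
Mir455, chr5:81704834-81704911, plus strand, GRCr8: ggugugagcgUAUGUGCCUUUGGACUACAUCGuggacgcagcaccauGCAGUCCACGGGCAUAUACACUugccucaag
Mir140 lies 118731 bases into Wwp2 (chromosome 19, 52256563 to 52380967) and Mir455 lies 42013 bases into Col27a1 (chromosome 5, 81662822 to 81781502). The deposited table places the hairpins at chromosome 19, 39608948 to 39609059, and chromosome 5, 79097195 to 79097297, and the build behind these positions was not given in the sources used here. Both 3p arms were richer in G and C than the 5p arms, with 59.1% for miR-140-3p and 54.5% for miR-455-3p, against 45.5% for both 5p arms.

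Library totals ranged from 819845 to 1416940 counts in NPPC and from 329011 to 681591 in NPC libraries, so the NPPC libraries were all deeper than the NPC ones. NPC replicate 1 stood apart. Its factor from TMM scaling, which sets libraries on a common scale by their shared miRNAs, was 1.70, where the other 7 lay between 0.868 and 1.00. Over 278 rat names GC percent was correlated with how far a miRNA's log2 level in 1 library lay from its 8-library mean. Spearman's rho was -0.623 to -0.334 in the NPPC libraries, 0.856 in NPC replicate 1 and -0.554 to -0.0452 in the other NPC libraries. These correlations run across miRNAs and share the mean they deviate from. Results are therefore given with and without this library. Of 25 miRNA markers of other cell types (leukocyte, erythrocyte, endothelial, muscle, epithelial, neural and liver miRNAs), 17 could be tested and 0 passed edgeR's quasi-likelihood test, with 0 at an unadjusted p under 0.05. Over all 391 names tested, 0.256% passed, and 4.09% were higher and 5.37% lower in NPPC at that unadjusted p. With shares this small, 0 of 17 does not show that the groups were alike in these markers. The summed level of the markers was 1723 to 3350 CPM (library-scaled counts, with TMM factors applied) in NPPC and 1512 to 2734 CPM in NPC libraries. Over these 17 the median log2 fold change (NPPC over NPC) was -0.092. Without NPC replicate 1 it was -0.25, in a fit where miR-133a-3p could be tested as well. By list the median with all libraries was -0.35 for leukocyte, 0.0065 for erythrocyte, 0.099 for endothelial, 0.020 for muscle, -0.092 for epithelial, 0.23 for neural and -0.70 for liver markers. Without NPC replicate 1 it was -0.51, -0.31, -0.13, 0.49, -0.21, 0.0039 and -0.96 in the same order of lists. The muscle value of 0.49 includes miR-133a-3p, at 1.36, while miR-1-3p, the muscle name tested in both fits, went from 0.020 to -0.38. Each list had 1 to 5 tested names in the fit of all libraries, with 1 each for muscle and liver, and the 4 erythrocyte names ran from -0.52 for miR-486 to 1.30 for miR-451-5p. NPPC replicate 2 was far the highest for miR-451-5p, with 212, 842, 99.2 and 96.3 CPM in NPPC replicates 1 to 4. The NPC replicates 1 to 4 held 39.5, 222, 164 and 81.5 CPM.

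miR-140-3p was the most abundant of the 4 arms in all 8 libraries, and ranked 26th among rat names by mean level in NPPC exosomes and 18th in NPC exosomes. It made up 80.6% ± 1.94 of the summed counts of the 4 arms in NPPC and 87.4% ± 4.45 in NPC exosomes (SD, n = 4 each). The order of mean levels was miR-140-3p, miR-140-5p, miR-455-5p and miR-455-3p in both groups. All 4 deposited sequences are 22 bases long, so levels in CPM are compared without scaling for length. They are read counts, and whether the 4 sequences were read equally well was not tested. In NPPC exosomes the ranges of neighbours in that order did not overlap. In NPC exosomes the ranges of miR-140-5p and miR-455-5p overlapped, as did those of miR-455-5p and miR-455-3p, although miR-140-5p had the higher count in 4 of 4 libraries and miR-455-5p in 3 of 4. Counts ran from 5157 to 9039 for miR-140-3p, where counting error is 1.05% to 1.39%. For the other arms they ran from 122 to 1271, where it is up to 9.05%. Together the 4 arms took 0.834% ± 0.0694 of NPPC counts and 1.501% ± 0.765 of NPC counts (SD, n = 4 each). In NPC replicate 1 miR-140-3p alone took 2.48%.

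**Figure D1:**
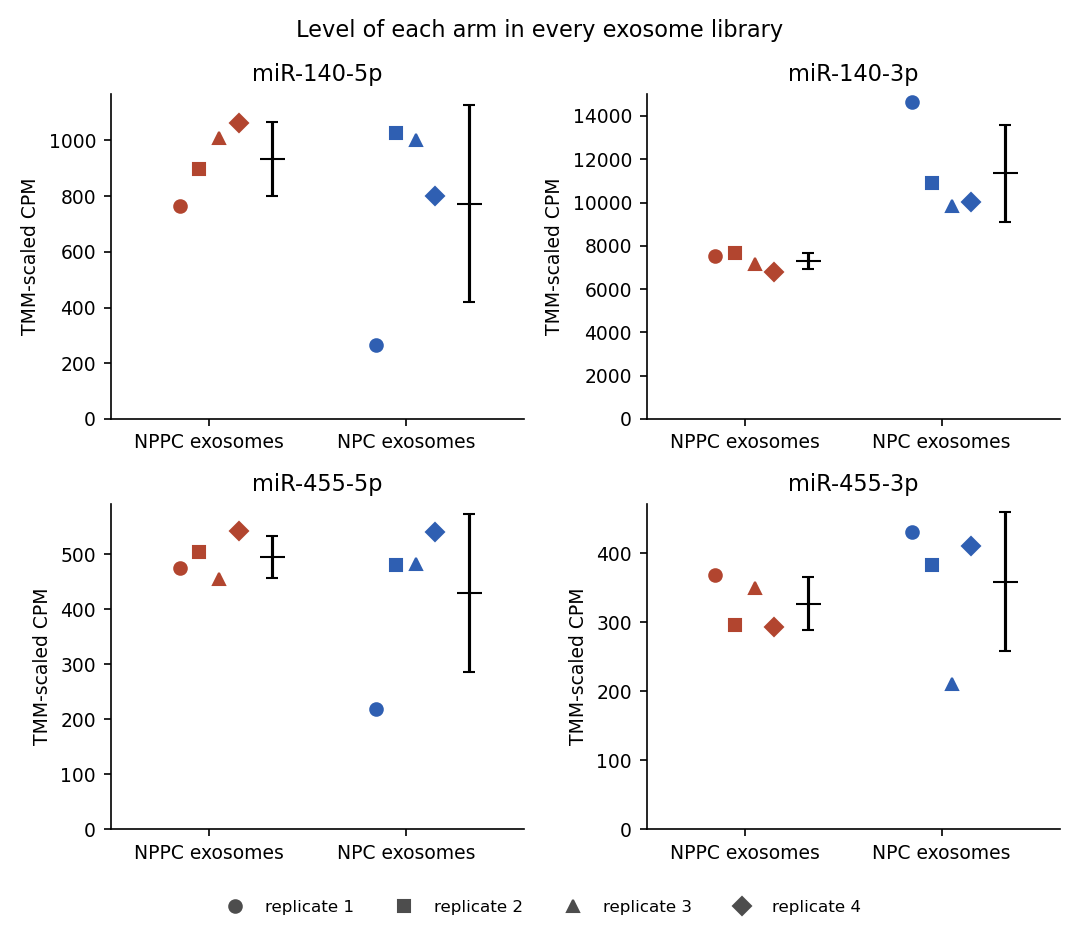
TMM-scaled CPM of each arm (vertical axes, from 0) in NPPC and NPC exosome libraries, with the marker shape giving the replicate number and the bar the mean ± SD of 4 libraries. The NPPC libraries of miR-140-3p lie between 6803 and 7649 CPM, below all NPC libraries, while NPC replicate 1 is the lowest library of both 5p arms and the highest of both 3p arms.

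The series compared NPPC exosomes with NPC exosomes, and its title concerns delivery of NPPC exosomes to the disc after discectomy. rno-miR-140-3p, the arm that dominates the miR-140 hairpin, stood at 7534, 7649, 7170 and 6803 CPM in NPPC replicates 1 to 4, against 14647, 10908, 9822 and 10008.5 CPM in NPC replicates 1 to 4. All 4 NPPC libraries lay below all 4 NPC libraries, and NPC replicate 1 was the highest. The means were 7289 ± 383 CPM in NPPC and 11346 ± 2251 CPM in NPC exosomes (SD, n = 4 each), which is 35.8% lower in NPPC. The log2 fold change was -0.64 ± 0.16 (SE), and the adjusted p was 0.289 by the quasi-likelihood test of edgeR, two-sided and adjusted by Benjamini-Hochberg over 391 names, so miR-140-3p did not pass the threshold of 0.05. Its unadjusted p of 0.00370 was the fifth smallest of the 391. In this fit 1 name, or 0.256%, passed, 5.37% were lower in NPPC with an unadjusted p under 0.05, and 4.09% were lower without overlap of the groups.

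Without NPC replicate 1 the 3 other NPC libraries of miR-140-3p averaged 10246 ± 581 CPM (SD, n = 3), the log2 fold change was -0.48 and the adjusted p 0.0511. With neither library numbered 1, a setting chosen after seeing the data, it passed at -0.47 (adjusted p = 0.0258 by edgeR). In that fit 43 of 426 names passed and 119 had an unadjusted p under 0.05, where 1 of 391 passed in the reported fit. The value of miR-140-3p differed with the treatment of GC content. A correction of each library for its trend on GC percent gave -0.34 (adjusted p = 0.765), and the same correction without NPC replicate 1 gave 0.012 (adjusted p = 0.965). Over 25 alternative settings the adjusted p ranged from 0.0258 to 0.965. Among 31 rat names with a mean of at least 5000 CPM, a limit set after seeing the data, miR-140-3p had the lowest log2 fold change. Of these names 12 were below 0 and 3 had an unadjusted p under 0.05 by edgeR, against 37 of all 391 names. Some rat names under that limit had lower values, such as miR-351-5p at -0.67 and miR-3473 at -1.25. Levels here are shares of a library, and in bulk exosome RNA fewer vesicles from 1 kind of cell and less of a miRNA per vesicle cannot be told apart.

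**Figure D2:**
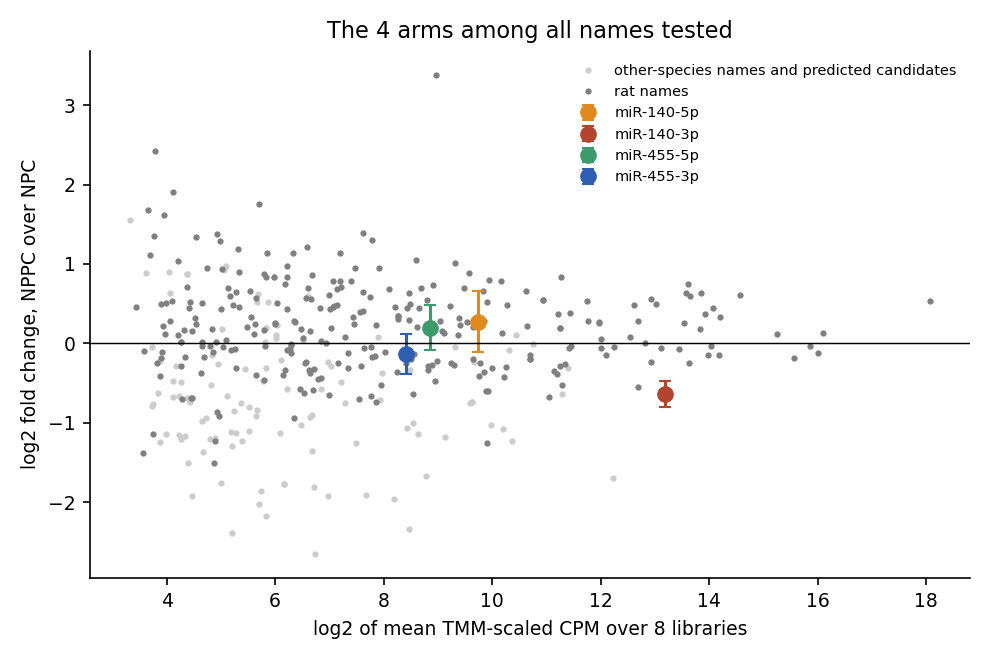
Log2 fold change of NPPC over NPC (vertical axis) against the log2 of mean TMM-scaled CPM (horizontal axis) for 391 names tested with edgeR, grey for rat names and light grey for the rest, with the 4 arms coloured and their bars showing ± 1 SE. miR-140-3p lies at -0.64 and the other 3 arms lie between -0.13 and 0.27.

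rno-miR-140-5p, the arm whose targets in mouse cartilage include Adamts5, stood at 763, 898, 1008 and 1063 CPM in NPPC replicates 1 to 4, against 267, 1026, 1000.0 and 800 CPM in NPC replicates 1 to 4. The groups overlapped, and only NPC replicate 1 lay below every NPPC library. The means were 933 ± 133 CPM in NPPC and 773 ± 352 CPM in NPC exosomes (SD, n = 4 each). The log2 fold change was 0.27 ± 0.38 (SE) with an adjusted p of 0.732 by edgeR's quasi-likelihood test, and without NPC replicate 1 it was -0.0052 (adjusted p = 0.991).

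rno-miR-455-5p held 476, 504, 454.5 and 543 CPM in NPPC replicates 1 to 4, against 219, 480, 483 and 540 CPM in NPC replicates 1 to 4. Apart from NPC replicate 1 the groups covered the same range. The means were 494 ± 38.1 CPM in NPPC and 430 ± 144 CPM in NPC exosomes (SD, n = 4 each), and the 3 other NPC libraries averaged 501 ± 33.6 CPM. The log2 fold change was 0.20 ± 0.28 (SE) with an adjusted p of 0.731 by edgeR, and -0.0093 (adjusted p = 0.984) without NPC replicate 1.

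rno-miR-455-3p, the less abundant arm of its hairpin by group mean, held 369, 296, 350 and 293 CPM in NPPC replicates 1 to 4, against 430, 383, 210 and 410 CPM in NPC replicates 1 to 4. NPC replicate 3 was the lowest library of all and the other NPC libraries were above every NPPC library. The means were 327 ± 38.2 CPM in NPPC and 358 ± 101 CPM in NPC exosomes (SD, n = 4 each). The log2 fold change was -0.13 ± 0.25 (SE) with an adjusted p of 0.811 by edgeR, -0.28 without NPC replicate 3 and -0.020 without NPC replicate 1. Across the 8 libraries 0 of the 4 arms passed. The coefficient of variation was 5.26% to 14.2% in NPPC and 19.8% to 45.6% in NPC exosomes. With NPC replicate 1 left out, miR-140-5p had 14.2% in NPPC and 13.2% in NPC libraries, and miR-455-5p had 7.71% in NPPC and 6.70% in NPC libraries. For miR-140-3p the values were 5.26% in NPPC and 5.67% in NPC libraries, and for miR-455-3p 11.7% in NPPC and 32.4% in NPC libraries.

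The 5p to 3p ratio of a hairpin compares counts within a library and does not depend on scaling between libraries. For miR-140 the 5p arm took 9.19% (95% Wilson interval 8.53% to 9.90%), 10.5% (9.87% to 11.2%), 12.3% (11.7% to 13.0%) and 13.5% (12.8% to 14.2%) of the hairpin's counts in NPPC replicates 1 to 4. In NPC replicates 1 to 4 it took 1.79% (1.53% to 2.10%), 8.60% (7.97% to 9.27%), 9.24% (8.55% to 9.98%) and 7.398% (6.74% to 8.12%). These intervals cover counting error only. The 3p arm dominated in all 8 libraries, with 6.40 to 9.88 counts for each 5p count in NPPC and 9.82 to 54.8 in NPC libraries. NPPC replicate 1 and NPC replicate 3 lay at the same level, NPC replicate 1 was far below, and the NPPC library was higher in 15 of 16 pairs of 1 library from each group. The mean log2 ratio was -2.98 ± 0.28 in NPPC and -4.03 ± 1.17 in NPC exosomes (SD, n = 4 each), a difference of 1.06. The exact permutation test, two-sided, gave p = 0.0571 and an adjusted p of 0.0857 over 3 ratios tested. The smallest p that 70 arrangements can give is 0.0286. Without NPC replicate 1 the difference was 0.47 (exact permutation p = 0.0857), and without NPC replicate 3 it was 1.30 (exact permutation p = 0.0286, adjusted p = 0.0429).

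For miR-455 the 5p arm took 56.3% (95% Wilson interval 52.6% to 60.0%), 63.0% (59.6% to 66.3%), 56.5% (53.4% to 59.5%) and 64.9% (61.8% to 67.9%) of counts in NPPC replicates 1 to 4. In NPC replicates 1 to 4 it took 33.7% (29.0% to 38.7%), 55.6% (51.3% to 59.8%), 69.7% (65.1% to 73.9%) and 56.9% (52.4% to 61.2%). The 5p arm was thus the more abundant one in 4 of 4 NPPC and 3 of 4 NPC libraries, and NPC replicates 1 and 3 lay at opposite ends. The mean log2 ratio was 0.60 ± 0.27 in NPPC and 0.24 ± 0.90 in NPC exosomes (SD, n = 4 each). The difference was 0.36 (two-sided exact permutation p = 0.543), and -0.040 (exact permutation p = 0.943) without NPC replicate 1. A fit by limma over all hairpins gave a 95% confidence interval of -0.69 to 1.42 for it. Counting error alone would give an SD of 0.10 in NPPC and 0.14 in NPC libraries for miR-455, and of 0.050 and 0.079 for miR-140, below the observed SDs in each case.

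**Figure D3:**
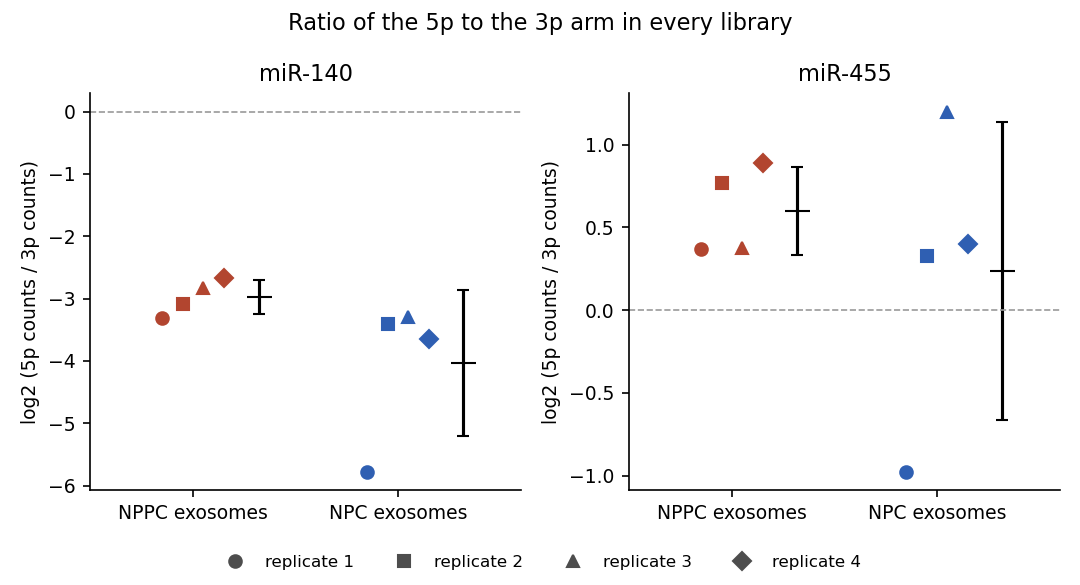
Log2 ratio of 5p to 3p counts (vertical axes) of the miR-140 and miR-455 hairpins in NPPC and NPC exosome libraries, with the marker shape giving the replicate number, the bar the mean ± SD of 4 libraries and the dashed line equal counts of both arms. miR-140 lies between -5.78 and -2.68 in the 8 libraries, miR-455 lies above 0 in all but NPC replicate 1, and that library is the lowest for both hairpins.

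Among 69 rat hairpins with both arms abundant enough to test, 39 had more 5p and 30 more 3p reads on average, and the median size of the log2 ratio was 3.08. miR-140 was near that middle, at place 39 from the most balanced hairpin, and miR-455 was among the most balanced, at place 5. Between groups, limma's moderated test called 0 of 69 hairpins (0.0%), with 8.7% at an unadjusted p under 0.05, and 7.25% were higher in NPPC without overlap. miR-140 had a change of 1.06 ± 0.56 (SE), the 11th highest, with an adjusted p of 0.583 by limma. miR-455 had 0.36 ± 0.46 (SE), the 30th highest, with an adjusted p of 0.712. The hairpins at the ends were miR-136 at 2.21, miR-540 at 1.56 and miR-181c at 1.501, and miR-27a at -1.90, miR-31a at -1.83 and miR-532 at -1.81. Of these 6, 5 had a count of 0 for 1 arm in at least 1 library, so their values depend on the 0.5 added to each count. Leaving out NPC replicate 1 put miR-540 at 0.35 and miR-31a at -0.28. The change moved with base composition. Across the 69 hairpins, which share the 8 libraries, the Pearson correlation of the change with the GC percent of the 5p arm minus that of the 3p arm was -0.46, and -0.057 without NPC replicate 1. That GC difference was -13.6 percentage points for miR-140 and -9.09 for miR-455. Of 26 hairpins whose 5p arm was lower in GC by at least 5 points, 22 had a change above 0, with a median of 0.61, and of 0.25 without NPC replicate 1. The median over all 69 was 0.20, and 0.16 without that library. The part of base composition in the arm ratios was not tested.

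**Figure D4:**
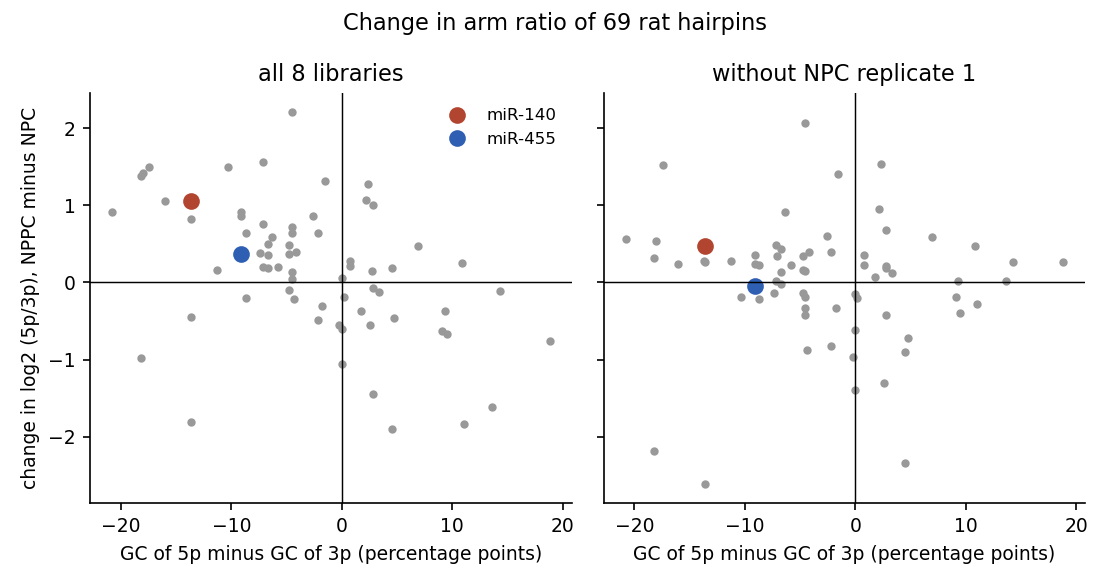
Change in the log2 5p to 3p ratio of 69 rat hairpins, NPPC minus NPC (vertical axes), against the GC percent of the 5p arm minus that of the 3p arm (horizontal axes, percentage points), for all 8 libraries and without NPC replicate 1. With all libraries miR-140 and miR-455 lie at 1.06 and 0.36 along a falling cloud of points, and without NPC replicate 1 they lie at 0.47 and -0.040, where the correlation over hairpins is -0.057.

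The hairpins were also set against each other within each library, by the sum of both arms. miR-140 outnumbered miR-455 by 9.83, 10.7, 10.2 and 9.41 to 1 in NPPC replicates 1 to 4, against 23.0, 13.8, 15.6 and 11.4 to 1 in NPC replicates 1 to 4. All 4 NPPC libraries lay below all 4 NPC libraries, and the NPPC libraries were close together. The mean log2 ratio was 3.32 ± 0.078 in NPPC and 3.95 ± 0.43 in NPC exosomes (SD, n = 4 each). The difference was -0.62, the exact permutation test (two-sided) gave p = 0.0286, the smallest possible, and an adjusted p of 0.0857 over the 3 ratios, so it did not pass. Without NPC replicate 1 it was -0.43 with the same exact permutation p. It passed without NPC replicate 3, at -0.62 (adjusted p = 0.0429), where its own exact permutation p was again 0.0286. Only the adjustment over the 3 ratios changed, because the exact permutation p of the miR-140 arm ratio was also 0.0286 there. Since miR-140-3p makes up most of this sum, the ratio is not separate from the difference of that arm.

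The rat miRNAs whose levels followed each arm most closely over the libraries were listed by the Pearson correlation of log2 CPM with 277 other rat names, as a description. For miR-140-3p these were miR-351-5p (0.95), miR-378a-3p (0.95), miR-125b-2-3p (0.94), miR-3473 (0.91) and miR-99b-5p (0.89), with 54.5% to 66.7% GC. Without NPC replicate 1 they were miR-143-3p (0.98), miR-224-5p (0.94), miR-532-5p (0.92), miR-148a-5p (0.92) and miR-185-5p (0.91), none of them on the first list. For miR-140-5p the 5 closest were let-7f-2-3p (0.99), miR-26a-5p (0.98), miR-3559-5p (0.98), miR-10a-3p (0.98) and miR-374-5p (0.98), with 31.8% to 40.9% GC. Of these let-7f-2-3p (0.87) and miR-26a-5p (0.77) were again among the 5 closest without that library. miR-455-5p was followed by miR-411-5p (0.99), miR-450b-5p (0.99), miR-28-5p (0.99), miR-450a-5p (0.98) and miR-872-5p (0.98). Its closest without NPC replicate 1 were miR-212-3p (0.80), miR-411-5p (0.77), miR-28-5p (0.69), miR-450b-5p (0.68) and miR-23a-3p (0.64). The closest to miR-455-3p were miR-125a-5p (0.98), miR-433-3p (0.95), let-7d-3p (0.89), miR-351-3p (0.84) and miR-409a-3p (0.82), and the first 3 were among its 5 closest without NPC replicate 1 as well, at 0.98, 0.95 and 0.87.

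The 2 arms of miR-140 did not follow each other. Their correlation was -0.73 over 8 libraries and -0.038 over the 7 without NPC replicate 1. For the arms of miR-455 it was -0.42 and 0.034. The 2 5p arms had 0.94 over all libraries and -0.098 without that library. The arms share depth and base composition trends of the same libraries. In mean level the nearest rat names were miR-24-3p above and miR-191a-5p below miR-140-3p, with log2 fold changes of -0.075 and -0.061. The neighbours of miR-140-5p were miR-210-3p, which low oxygen induces, and miR-128-3p, at -0.41 and -0.20. Those of miR-455-5p were miR-672-5p and miR-143-5p, at -0.28 each, and those of miR-455-3p were miR-872-5p and miR-298-5p, at 0.45 and -0.25. These 8 names had adjusted p between 0.408 and 0.904 by edgeR.

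Other miRNAs studied in chondrocytes and matrix turnover were taken as a list of 25 names, of which 21 could be tested. The list was chosen with earlier results of these data known, so its counts and median describe it and do not test it. By edgeR 1 passed, higher in NPPC exosomes, and 0 passed lower in NPPC, with 4 higher and 1 lower at an unadjusted p under 0.05. Over all 391 names 4.09% were higher and 5.37% lower at that p. The median log2 fold change of the list was 0.29, against -0.027 over all 391 names and 0.20 over the rat names tested. Without NPC replicate 1 it was 0.15. The name that passed was miR-146a-5p, an inducible repressor of NF-kappaB signalling, with 910 ± 223 CPM in NPPC and 87.1 ± 43.4 CPM in NPC exosomes (SD, n = 4 each) and an adjusted p of 0.0371. Its log2 fold change was 3.38, and 3.08 without NPC replicate 1 (adjusted p = 0.000508). It was the only name that passed among all 391. It no longer passed when any 1 of the other 7 libraries was left out, and with the replicate number as a block 0 names passed and 48 had an unadjusted p under 0.05. The 3 most abundant of the list were miR-27b-3p, which represses the collagenase gene MMP13 in human chondrocytes, at -0.033, miR-221-3p at 0.33 and miR-26a-5p at 0.45, and their adjusted p were 0.912, 0.393 and 0.667. Without NPC replicate 1 these 3 were -0.12, 0.30 and 0.13. miR-101a-3p and miR-101b-3p, both on the list, held identical values and are 1 measurement.

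**Figure D5:**
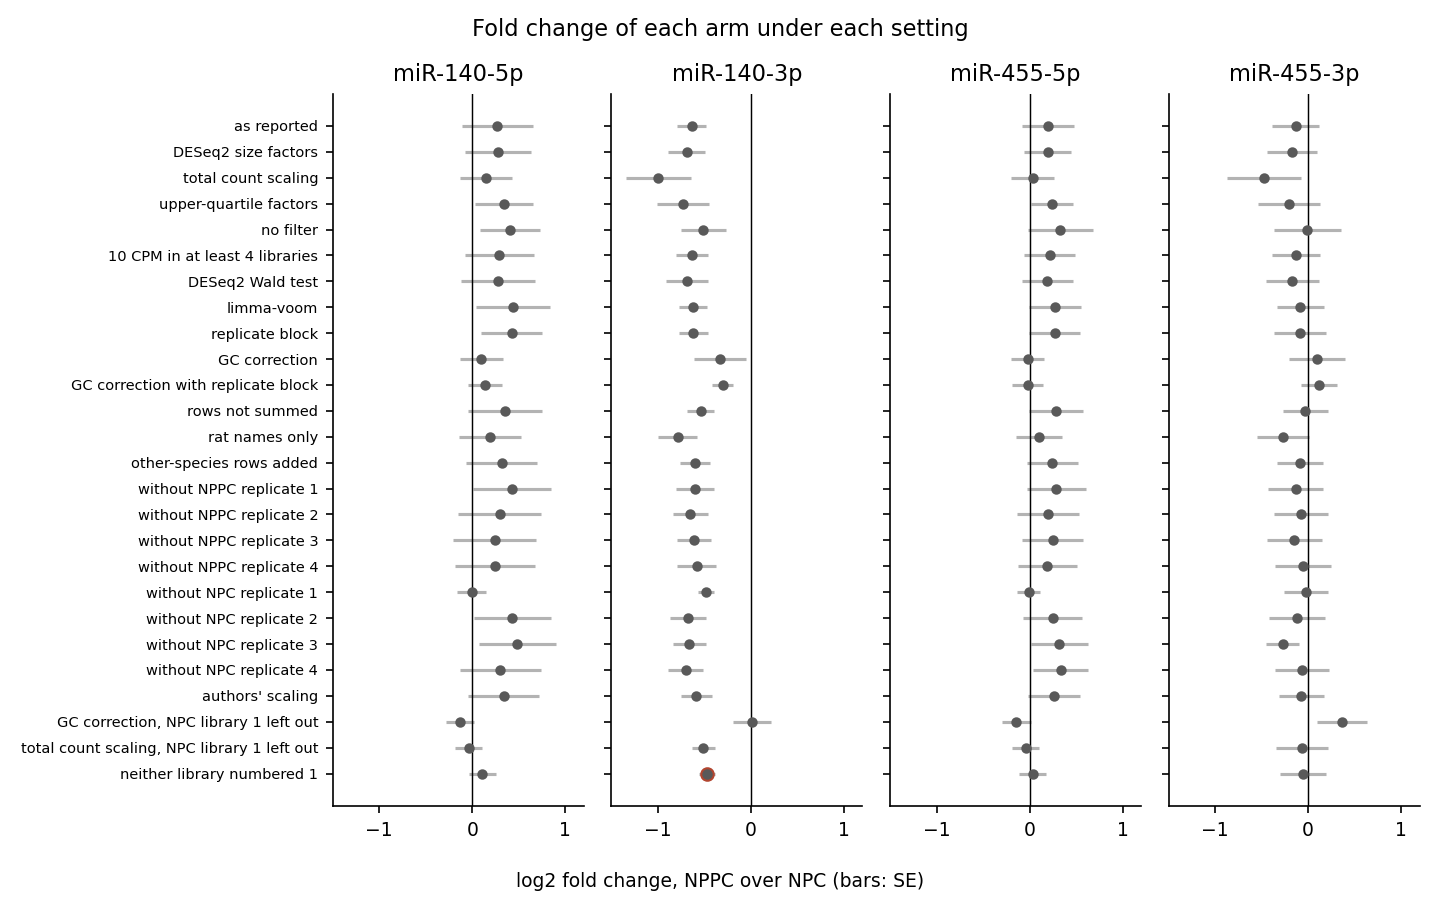
Log2 fold change of NPPC over NPC with its SE (horizontal axes) for each arm under the reported setting and 25 alternatives (vertical axis), with a red dot where the adjusted p is under 0.05. miR-140-3p lies between -0.99 and 0.012 and has a red dot once, with neither library numbered 1, and the other 3 arms lie on both sides of 0.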

How the data were processed

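Small RNA libraries were made with an Illumina TruSeq kit from RNA of an exosome isolation kit, per the labels' protocols. The tool CASAVA 1.8 is listed, per the submitters' processing notes. The genome build, the miRBase version and the aligner were not given in the sources used here. Deposited values are estimated counts for each row, and 82.3% of the 5804 above 0 were whole within 1e-09. All 32 values of the 4 arms were whole. A scaled signal was deposited beside them. Its columns equal the count times 1 factor per library and were used only as an alternative scaling.

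Members, lists and tests were chosen with earlier results of these data known. Rows were summed per name after cutting the name at its first _ sign, giving 1300 names, with predicted candidates kept as single rows, and rounded to whole numbers. edgeR 4.0.16 in R 4.3.3 was run with TMM factors, filterByExpr and group as the only term, adjusted over 391 names. The SE is the log2 fold change divided by the square root of F. Log2 CPM used a prior count of 2. Arm ratios of all hairpins were fitted with limma 3.58.1 after adding 0.5 to each count, with a mean trend. Ratios of single hairpins used two-sided exact permutation over 70 arrangements of all 8 libraries (Python 3.11.15, scipy 1.17.1). With a library left out there are fewer arrangements, so those p-values come from a coarser set. DESeq2 1.42.0 served as an alternative. The scripts were tested on simulated data. The counting error is the inverse square root of an arm's count in a library.

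Groups and replicate numbers came from sample titles. Libraries with the same number deviated together from their group means over the tested names, with correlations of 0.568, 0.112, 0.369 and 0.247 for numbers 1 to 4. Each was above 0.1, the limit set for taking the numbers as pairs. This comes from the data and not from the labels, and only 2 of 4 NPPC libraries correlated best with the NPC library of their own number. The reported tests did not use the numbers as pairs, and the replicate block was run as an alternative. Named miRNAs were the 4 arms, the 5 closest by correlation, the neighbours in level, list members that passed or were the 3 most abundant, and the 3 hairpins at each end. Of the marker lists, medians are given, with 2 erythrocyte names chosen after their values were seen.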

Additional observations from a re-analysis of the deposited data

Results flagged for a closer look

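Of 16 groups of 4 libraries examined (the levels of the 4 arms, the 3 ratios and the TMM factor in each group), 2 had 1 library well away from the rest, and chance alone does so in about 1 in 20 groups. Both times it was NPC replicate 1. Its log2 ratio of miR-140-5p to miR-140-3p was -5.78, where the other NPC libraries lay between -3.65 and -3.30, and its TMM factor was 1.70, where they lay between 0.868 and 0.973.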

How the results depend on the processing

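Each result was recomputed with other scalings, filters and tests, an offset for GC percent by loess (span 0.75, called the GC correction), the replicate block, other ways of summing rows and each library left out. Chosen after seeing the data were the authors' scaling, the GC correction or total count scaling without NPC replicate 1, and neither library numbered 1. The number of names that passed was 11 without a filter, 6 with the DESeq2 Wald test, 2 with the GC correction and block, 43 with neither library numbered 1, 0 with the replicate block, 0 by edgeR with rows not summed (60 at an unadjusted p under 0.05), and 0 to 1 with a library left out (23 to 86 at an unadjusted p under 0.05). The 1 was miR-146a-5p, without NPC replicate 1. With the GC correction 1 name passed without the block and 2 with it. The block changed no call of an arm, a ratio or the hairpins. With the block the log2 fold change was -0.62 for miR-140-3p, 0.42 for miR-140-5p, 0.27 for miR-455-5p and -0.092 for miR-455-3p. The adjusted p by edgeR were 0.270, 0.519, 0.617 and 0.871 in the same order. In the sign-flip form used for the ratios the block cannot give an exact p below 0.125.

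With a library left out the log2 fold change ran from -0.70 to -0.48 for miR-140-3p, -0.0052 to 0.49 for miR-140-5p, -0.0093 to 0.34 for miR-455-5p and -0.28 to -0.020 for miR-455-3p. The difference in ratio ran from 0.47 to 1.30 for the arms of miR-140, -0.040 to 0.69 for those of miR-455 and -0.77 to -0.43 for miR-140 over miR-455. With the GC correction miR-455-5p was -0.021 and miR-455-3p 0.097, and -0.020 and 0.12 with the block added. With that correction and without NPC replicate 1, miR-140-5p was -0.14, miR-140-3p 0.012, miR-455-5p -0.14 and miR-455-3p 0.37. With total count scaling and without that library, miR-140-5p was -0.039 and miR-455-5p -0.041. With neither library numbered 1 miR-140-3p was -0.47. The cause of these changes was not tested. Total count scaling with all libraries moved the median of all names by -0.27, and miR-140-3p from -0.64 to -0.99, or from -0.61 to -0.70 relative to the median. The count of 0 hairpins held in all 13 alternatives run with limma. Counting error was at most 9.05% for the arms, below the spread between NPC libraries for miR-140-5p and miR-455-3p with and without NPC replicate 1. For miR-140-3p it was at most 1.39%, against a spread between NPC libraries of 19.8%, and of 5.67% without NPC replicate 1. For miR-455-5p it was at most 9.05%, in NPC replicate 1, against a spread of 33.4%. In the other NPC libraries it was 5.89% to 6.00%, against a spread between them of 6.70%.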
